A study of Mus musculus with 2 samples.

Results

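Some CpG cytosines were almost free of methylation in one of the libraries and almost fully methylated in the other. They were chosen by their measured levels: an autosomal CpG cytosine with at least 10 reads in both libraries, at most 10% methylated in one and at least 90% in the other. Of 1603296 autosomal cytosines with that coverage, 367 met the rule, among 4631738 cytosines listed in either library. They are called full switches here. The 367 cytosines lay at 325 CpG sites, a site being the pair of cytosines that face each other on the strands of a CpG. The level of a cytosine is its methylated reads as a percentage of its reads.

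The libraries came from liver of 12-week-old CD-1 mice on standard chow, CD-1 being an outbred stock whose animals differ in sequence from each other and from the reference genome. There was 1 fasted library, from mice without food for 12 hr, and 1 control library, for which the labels give no treatment. Whether a library held DNA of 1 animal or of a pool is not given in the labels, and the files carry no genotypes. The assay, reduced representation bisulfite sequencing, reads DNA fragments cut at TaqαI and MspI sites, and cytosines that bisulfite has converted read as thymine. With 1 library a group there was no replicate spread and no test, so every value is that of 1 library, and intervals cover counting error only. Marker genes could not serve as a check of the tissue, since only 4 of 10 hepatocyte genes, and no immune cell gene, had a cytosine with enough reads within 1000 bp of an annotated start.

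In mammals, CpG methylation is normally kept on both strands, because the maintenance methyltransferase copies it to the new strand after replication, and nearby CpGs tend to share a level. From the reads of its own strand alone, an unmethylated cytosine cannot be separated from a thymine in the DNA itself after bisulfite treatment. A cytosine outside a CpG is seldom methylated in liver. A cytosine replaced by adenine or guanine gives neither read and drops out of the list. For these reasons a sequence variant that removes a CpG is read as lost methylation at both cytosines, or as lost methylation at one and no call at the other. The values below are set out with that in mind. Genotypes were not analysed here, so whether variants lay at these sites was not tested.

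Reference sequence was at hand for 4 of the 325 sites, those inside promoter sequences of RefSeq build GRCm38.p6, each running from 250 bases before to 50 after an annotated start. All 182892 listed CpGs inside such sequences stood on CG in the reference, so the positions and the build match. The 3 sequences are shown because each holds a switch in a different surrounding. They run 5′ to 3′ along the gene, with the switching CpG in capitals.

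Gm16158 promoter (chr7:68353170-68353469, minus strand):
Gm16158: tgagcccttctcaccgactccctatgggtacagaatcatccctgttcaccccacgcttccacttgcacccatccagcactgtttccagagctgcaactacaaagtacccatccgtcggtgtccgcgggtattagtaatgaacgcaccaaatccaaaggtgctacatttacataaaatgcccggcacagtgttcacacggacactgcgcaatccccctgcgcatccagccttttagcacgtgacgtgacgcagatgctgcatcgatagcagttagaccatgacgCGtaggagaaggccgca
Gm8773 promoter (chr5:5573754-5574053, plus strand):
Gm8773: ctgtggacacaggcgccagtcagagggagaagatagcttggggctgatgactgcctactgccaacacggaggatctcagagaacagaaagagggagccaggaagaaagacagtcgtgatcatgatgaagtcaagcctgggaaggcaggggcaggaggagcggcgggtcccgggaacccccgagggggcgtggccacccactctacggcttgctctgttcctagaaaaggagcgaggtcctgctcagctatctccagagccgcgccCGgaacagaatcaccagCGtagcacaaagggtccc
Cd55b promoter (chr1:130422994-130423293, minus strand):
Cd55b: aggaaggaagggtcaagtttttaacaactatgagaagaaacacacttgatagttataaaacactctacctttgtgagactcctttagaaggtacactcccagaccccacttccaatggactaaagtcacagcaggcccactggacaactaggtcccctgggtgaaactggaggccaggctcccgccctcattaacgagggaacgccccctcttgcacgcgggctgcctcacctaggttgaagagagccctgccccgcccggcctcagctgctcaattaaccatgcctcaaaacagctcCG

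In the Gm16158 sequence a single cytosine changed inside an otherwise methylated stretch. The cytosine at base 284 of the printed sequence stood at 5.56% of 18 reads in the fasted library and at 100% of 21 reads in the control library. The CpG starting 2 bases upstream, at base 282, stood at 94.4% of 18 reads in the fasted library and 100% of 21 reads in the control library on the same strand. The plus strand partner of the switching cytosine was not listed in the fasted library. It stood at 100% of 13 reads in the control library. Over the 13 other measured cytosines of the sequence the mean was 97.0% in the fasted and 96.6% in the control library.

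The Gm8773 sequence behaved as a block. Its CpGs at bases 266 and 283 both stood at 92.3% in the fasted library, against 0% and 7.14% in the control library. The minus strand partner of the CpG at base 283 stood at 81.8% of 22 reads in the fasted and 4.44% of 45 reads in the control library. The 3 measured cytosines of other CpGs averaged 81.0% in the fasted and 9.09% in the control library. In the Cd55b sequence, from a complement regulator gene, the switching CpG was the only one measured of 8 in the window, at 90% of 10 reads in the fasted library and 0% of 10 reads in the control library. Its surroundings in the window therefore had no value.

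Both directions occurred in similar numbers. There were 200 cytosines at 177 sites that were higher in the fasted library, 0.0125% of the cytosines examined, and 167 cytosines at 148 sites that were lower in the fasted library, 0.0104%. Together they made up 0.0229%. The plus strand held 177 of the cytosines and the minus strand 190. Since the rule picked these cytosines on this contrast, the counts describe the selection and nothing further was read from them.

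**Figure D1:**
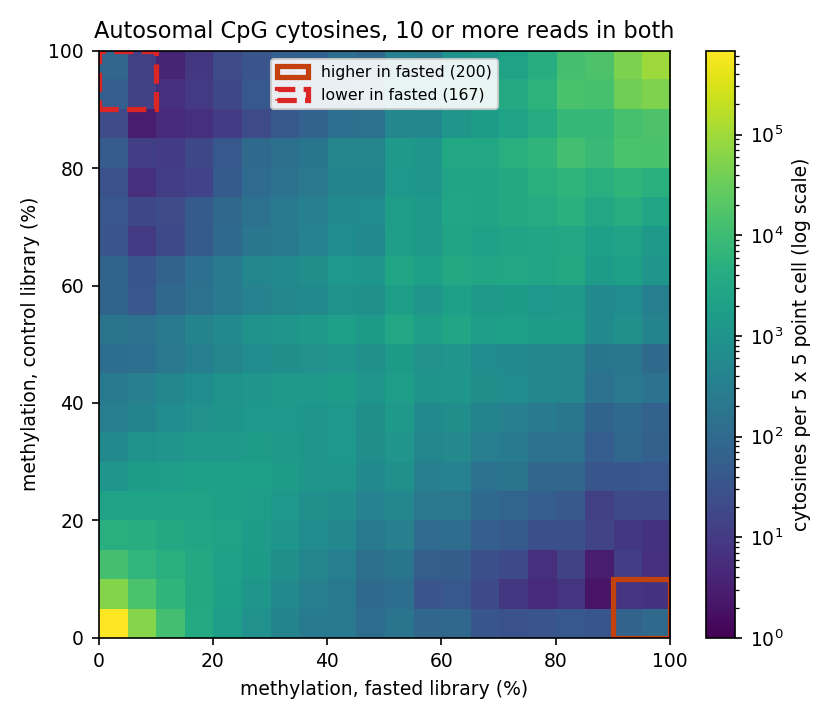
Methylation of 1603296 autosomal CpG cytosines in the fasted library (x axis, %) and the control library (y axis, %), coloured by the number of cytosines per cell on a log scale. The solid box at the lower right holds the 200 full switches higher in the fasted library and the dashed box at the upper left the 167 lower in the fasted library.

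Counts did not fall off steadily towards the boxed corners. Among cytosines at most 10% methylated in the control library, 487 stood at 50 to 60% in the fasted library, 216 at 60 to 70%, 86 at 70 to 80%, 93 at 80 to 90% and 200 at 90 to 100%. Among cytosines at most 10% methylated in the fasted library, the control library had 522, 172, 102, 87 and 167 in the same classes. In both directions the last class held more cytosines than either of the classes just before it. The rule selected on these levels, and 90% or more was a frequent level in general. Over all cytosines examined, 19.9% stood there in the fasted and 19.5% in the control library. Whether the rise exceeds that over all cytosines was not tested. Near the limits of the rule, 93 of the 367 members had a low level above 8% or a high level below 92%. Just outside, 31 cytosines lay within 12% and 88% without meeting the rule, with low levels up to 11.8% and high levels down to 88.2%.

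At the cytosines higher in the fasted library, 3630 of 3785 reads were methylated in the fasted library and 37 of 3511 in the control library. At those lower in the fasted library, 38 of 2970 reads were methylated in the fasted library and 2850 of 2960 in the control library. The low side was at exactly 0% for 309 of the 367 cytosines, and the high side at exactly 100% for 174. The rule bounds all these levels, so they describe the selection. Coverage was modest, with a median of 16 reads in the fasted library and 15 in the control library and at most 54 and 52 reads. Of the 367 cytosines, 177 had fewer reads in the library where they were low and 162 had more. Of the 200 higher in the fasted library, 106 had fewer reads where they were low, and of the 167 lower in the fasted library, 71 did.

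The strand partner, the other cytosine of the same CpG read from the opposite strand, moved with the member at most sites where it was measured. It had at least 10 reads in both libraries for 145 of the 367 members, which lay at 103 sites. At 42 of these sites, 40.8% (95% exact interval 31.2 to 50.9), both cytosines met the rule, so 84 of the 145 partners were members themselves, chosen by the same levels. Across all 904040 cytosines with a partner of that depth, 0.0160% of partners met the rule.

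At the other 61 sites the partner was no member. It moved at least 50 points in the direction of the member at 51 of the 61, 20 to 50 points in that direction at 8 and by less than 20 points at 2. Beside the 30 cytosines higher in the fasted library its median level was 83.3% in the fasted and 0% in the control library. Beside the 31 lower in the fasted library it was 0% in the fasted and 83.3% in the control library. Partners that met the rule are left out of these medians by definition, which keeps their high side down. With both kinds counted once per site, 93 of 103 sites had a partner that moved at least 50 points with the member. How often partners moved that far over all cytosines was not counted, so these numbers describe the members only.

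**Figure D2:**
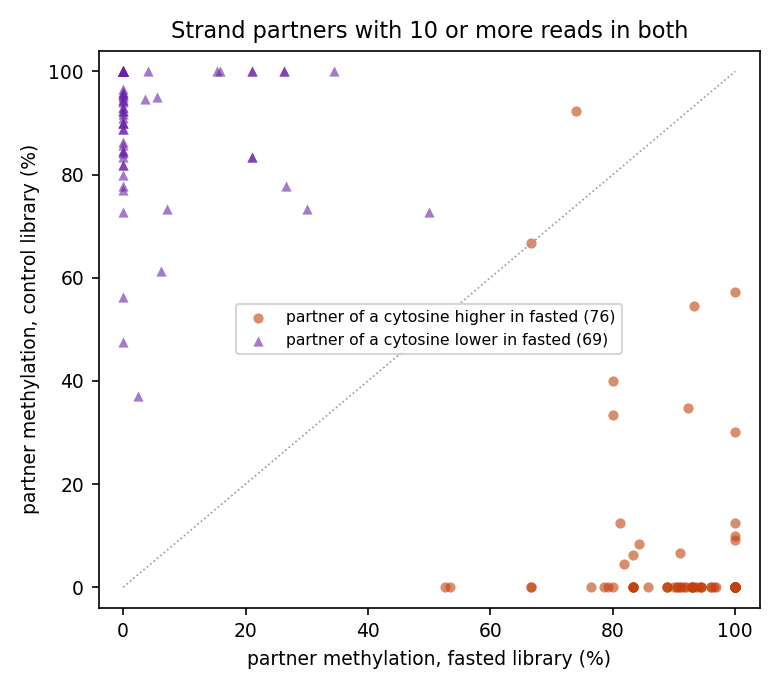
Level of the strand partner in the fasted library (x axis, %) and the control library (y axis, %) for the 145 members whose partner had at least 10 reads in both libraries; points are single cytosines and the dotted line marks equal levels. Partners of cytosines higher in the fasted library gather at the lower right and those of cytosines lower in the fasted library at the upper left, with 2 partners of cytosines higher in the fasted library near the line.

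Contrasts of this size also occurred between the strands of a CpG within a library. Over 452020 CpGs with 10 reads on each strand in both libraries, the strands stood at opposite ends, at most 10% and at least 90%, at 35 CpGs in the fasted library and 38 in the control library. Between the libraries, 76 plus strand and 69 minus strand cytosines of the same CpGs switched fully. At 42 CpGs both strands switched in the same direction and at 0 in opposite directions. The switching cytosines were chosen by these levels and how the contrasts within a library arose was not tested, so the counts are set side by side as a description.

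For the other 222 members the partner had fewer than 10 reads in at least 1 library. The partly read ones followed the members when their reads were summed, although single partners did not all do so. In 122 cases the partner was listed in both libraries. Beside cytosines higher in the fasted library, such partners held 496 methylated of 533 reads in the fasted library and 39 of 487 in the control library. Beside those lower in the fasted library, they held 27 of 489 reads in the fasted library and 376 of 409 in the control library. The partner was listed in neither library in 16 cases.

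Missing partners lay mostly on the low side. Of 200 cytosines higher in the fasted library, 24 had a partner with at least 10 reads there that was unlisted in the control library. Another 4 had the reverse. Of 167 cytosines lower in the fasted library, 17 had a partner unlisted there and with at least 10 reads in the control library. Another 5 had the reverse. In all, 50 of 367, or 13.6% (10.3 to 17.6), had a partner read well in one library and absent from the other. Among 230274 cytosines at 90% or more in both libraries the share was 0.112%. The 41 partners missing on the low side were highly methylated where they were read, with 694 of 743 reads. In a further 26 cases the partner was absent on the low side with 1 to 9 reads on the high side, and in 8 cases absent on the high side with 1 to 9 on the low side.

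The nearest other CpG held its level beside most members, though less often than beside cytosines in general. It lay within 50 bp, with at least 10 reads in both libraries, for 311 members at a median distance of 13 bp. Both cytosines of a site are counted, so these shares are over cytosines and not over independent sites. Beside cytosines higher in the fasted library its median level was 93.3% in the fasted and 91.7% in the control library. Beside those lower in the fasted library it was 89.5% in the fasted and 94.1% in the control library. It changed by less than 10 points in 186 of 311 cases, or 59.8% (54.1 to 65.3). Among all cytosines the same share was 82.5%, and among cytosines at 90% or more in at least 1 library 68.8%. It moved 50 points or more with the member in 41 cases, or 13.2%, and against the member in 3. Among all cytosines the nearest other CpG changed 50 points or more, in either direction, in 0.256%. Beside members it moved 20 to 50 points with the member in 26 cases and against it in 5.

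Where the nearest other CpG held its level, that level was mostly high, about as often as beside methylated cytosines in general. Of those 186 neighbours, 146, or 78.5%, averaged 90% or more over the libraries, 32 averaged 70 to 90%, 5 averaged 30 to 70% and 3 were below 30%. Beside all cytosines at 90% or more in at least 1 library, 75.6% of the neighbours that changed by less than 10 points averaged 90% or more. The 3 members with a neighbour below 30% were cytosines lower in the fasted library, 1 in Cacnb4 and both cytosines of a CpG in Cdk14, and they were looked at after the values were seen. At the Cacnb4 one (chromosome 2, position 52509760) the member stood at 0% of 17 reads in the fasted and 95% of 20 reads in the control library, beside a neighbour 19 bp away at 0% in both. Its partner had only 2 reads in the fasted and 1 in the control library, none of them methylated.

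**Figure D3:**
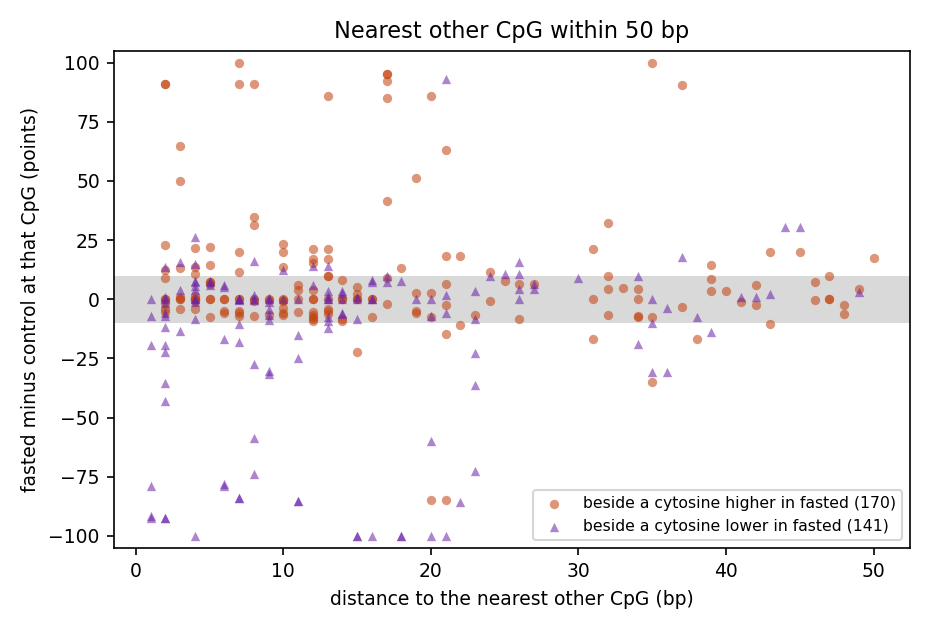
Change of the nearest other CpG, fasted minus control (y axis, percentage points), against its distance from the member (x axis, bp) for 311 members. Most points lie in the grey band of less than 10 points at all distances, and the points beyond 50 points mostly share the direction of the member.

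By all CpGs within 100 bp, the sites fell into solitary ones, blocks and a mixed class. Of 325 sites, 292 had another measured CpG in that range. At 173 of these every other cytosine changed by less than 20 points, at 29 the median of the others moved at least 50 points with the member, and 90 lay in between. The classes depend on how many others were measured, with a median of 3. They were not counted around other cytosines, so these numbers describe the members only. Around the 173 solitary sites the other cytosines averaged 90.4% in both libraries, with 97 sites higher and 76 lower in the fasted library. The definition of the class keeps these averages close to each other. The other cytosines averaged 80% or more in both libraries at 150 of the 173. Of the 29 block sites 9 were higher and 20 lower in the fasted library.

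Solitary switches were clear at several well covered loci. Inside Ntrk2, which encodes the receptor of the neurotrophin BDNF, the plus strand cytosine at position 59121188 on chromosome 13 stood at 94.4% of 36 reads in the fasted library and 0% of 28 reads in the control library. Its partner stood at 94.4% of 18 reads in the fasted and 0% of 20 reads in the control library. The 7 other cytosines within 100 bp averaged 96.0% in the fasted and 96.5% in the control library. Inside Btc, the gene of the growth factor betacellulin, the direction was the other one. There the minus strand cytosine at position 91368305 on chromosome 5 stood at 0% of 28 reads in the fasted and 90.9% of 33 reads in the control library, and its partner at 0% of 24 reads in the fasted and 100% of 36 reads in the control library. The CpG starting 2 bp before it stood at 92.9% in the fasted and 100% in the control library on the same strand.

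**Figure D4:**
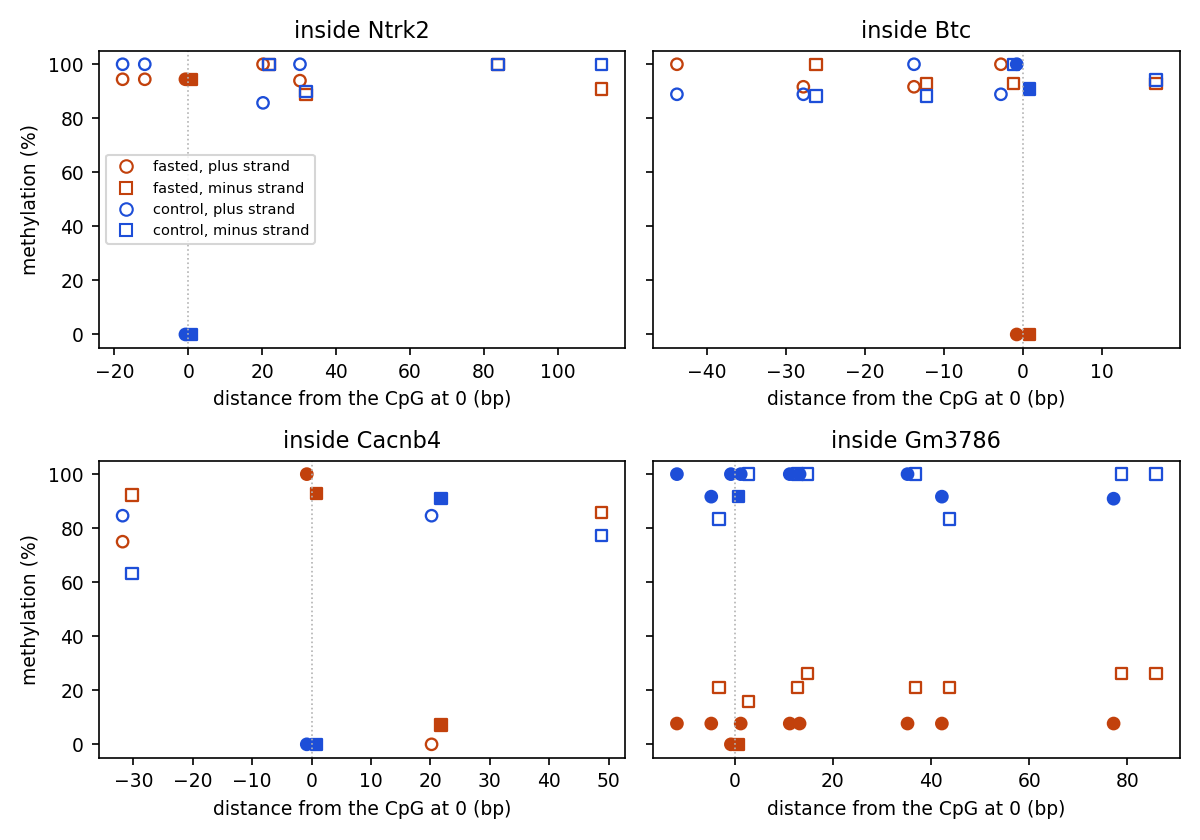
Methylation (y axis, %) of each measured cytosine around 4 sites against its distance from the CpG at 0 (x axis, bp), fasted in orange and control in blue, circles for the plus and squares for the minus strand, filled where the cytosine is a full switch. Points of the strands are set slightly apart. Inside Ntrk2 and Btc only the CpG at 0 switches, inside Cacnb4 neighbouring CpGs differ in opposite directions, and inside Gm3786 the whole stretch differs.

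Of the 8 best covered sites with both strands higher in the fasted library, 6 were solitary and 2, inside Cacnb4 and near Gm38917, were mixed. Inside Mark1, a kinase gene of microtubule regulation, the minus strand cytosine stood at 100% of 24 reads in the fasted and 0% of 30 reads in the control library (chromosome 1, position 184905483), and its partner at 100% in the fasted and 10% in the control library. Inside Ksr2, which encodes a scaffold of the Raf and MEK kinases, it was 93.8% of 16 reads in the fasted and 0% of 16 reads in the control library on the plus strand (chromosome 5, position 117708130). Its neighbour 3 bp away stood at 100% in both. Between genes, a site 7104 bp from Kif27, a kinesin gene, stood at 100% of 18 reads in the fasted and 0% of 38 reads in the control library. Sites 8799 bp from Hmcn2, 13641 bp from Itprid2 and 79775 bp from Gm38917 stood at 91.1%, 96% and 100% in the fasted library, each against 0% in the control library.

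Of the 8 best covered sites with both strands lower in the fasted library, 2 were solitary, inside Btc and near Abl2, and 6 were mixed. Il3ra encodes the alpha chain of the interleukin-3 receptor. A cytosine inside it, 802 bp from an annotated start, stood at 0% of 36 reads in the fasted and 95.8% of 48 reads in the control library, while the nearest other CpG, 35 bp away, stood at 11.1% in the fasted and 41.7% in the control library. Inside Csgalnact1, an enzyme gene of chondroitin sulfate synthesis, a cytosine stood at 0% of 17 reads in the fasted and 92.3% of 13 reads in the control library, and its neighbour moved the other way, with 85.7% in the fasted and 55% in the control library. Sites 3771 bp from Abl2, a tyrosine kinase gene, 6402 bp from 9330102E08Rik and 9422 bp from Gm36156 stood at 0%, 4% and 0% in the fasted library, against 100%, 100% and 94.4% in the control library. Inside Med12l, a gene of the Mediator family, the member stood at 0% of 14 reads in the fasted and 95.5% of 22 reads in the control library, and the CpG 20 bp away at 0% in the fasted and 100% in the control library.

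Members seen on 1 strand included some of the deepest sites. Inside Cep250, a centrosomal protein gene, the plus strand stood at 96.3% of 54 reads in the fasted and 0% of 38 reads in the control library, and the partner at 83.3% of 24 reads in the fasted and 0% of 30 reads in the control library, so the partner missed the rule only through its high level. Inside Ppm1l, a protein phosphatase gene, the minus strand stood at 0% of 28 reads in the fasted and 100% of 30 reads in the control library, and the partner at 0% of 26 reads in the fasted and 77.8% of 18 reads in the control library. Inside Pkd2l1, a cation channel gene, it stood at 0% of 33 reads in the fasted and 100% of 32 reads in the control library.

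In other single-strand members the partner was absent from the library where the member was low. Inside the pseudogene Gm8277 the minus strand cytosine stood at 94.1% of 34 reads in the fasted and 0% of 46 reads in the control library. Its partner stood at 93.1% of 29 reads in the fasted library and was unlisted in the control library. Inside the lncRNA gene Gm35341 the member stood at 0% of 30 reads in the fasted and 100% of 37 reads in the control library. Its partner was unlisted in the fasted library and stood at 100% of 24 reads in the control library. A site 77779 bp from the pseudogene Gm19018 was alike, at 0% of 28 reads in the fasted and 100% of 31 reads in the control library. Its partner was unlisted in the fasted library and stood at 100% of 12 reads in the control library.

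A pair of single-strand members higher in the fasted library had thinly read partners. The site 11412 bp from Ccdc122 stood at 90.5% of 42 reads in the fasted and 5.26% of 38 reads in the control library, and its partner at 80% of 15 reads in the fasted and 0% of 7 reads in the control library. The site 45131 bp from Gm29958 stood at 90% of 40 reads in the fasted and 0% of 30 reads in the control library. Its partner was unlisted in the fasted library, where the member was high, and had 2 unmethylated reads in the control library.

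Outside chromosome 18, 6 genes held 3 or more switching sites. Mgmt, which encodes the DNA repair protein that removes methyl groups from the O6 position of guanine, held 4 sites over 179039 bp, all higher in the fasted library. Its 5 member cytosines stood at 90.9 to 100% in the fasted library and at 0% in the control library, while its 110 other cytosines averaged 86.4% in the fasted and 87.3% in the control library. At 2 of its 4 sites the partner had reads in the fasted library, 15 and 11 of them and all methylated, and was absent from the control library. Enox1, whose product is a cell surface oxidase, held 3 sites over 232419 bp, all higher in the fasted library, at 91.3 to 100% in the fasted and 0% in the control library. Its 411 other cytosines averaged 53.4% in the fasted and 55.1% in the control library. The partners at the 3 Enox1 sites were less methylated than the members in the fasted library, at 66.7% of 12, 53.3% of 15 and 75% of 4 reads. In the control library they stood at 0% of 10, 11 and 1 reads.

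Cdk14, a cyclin-dependent kinase gene, held 3 sites, all lower in the fasted library, with members at 0 to 4% in the fasted and 90 to 100% in the control library. Cacnb4, which encodes a beta subunit of voltage-gated calcium channels, held sites of both directions 21 bp apart. The first (chromosome 2, position 52634758, minus strand) stood at 92.9% of 28 reads in the fasted and 0% of 44 reads in the control library. The second, at position 52634779 on the same strand, stood at 7.14% of 14 reads in the fasted and 90.9% of 22 reads in the control library. The CpG 48 bp after the first changed less, with 85.7% in the fasted and 77.3% in the control library. Both partners moved with their own cytosine, to 100% in the fasted and 0% in the control library at the first and to 0% in the fasted and 84.6% in the control library at the second.

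Blocks made up the other genes. The pseudogene Gm3786 held 9 sites within 89 bp, all lower in the fasted library, with 10 member cytosines at 0 to 7.69% in the fasted and 90.9 to 100% in the control library. Rhbdf1, an inactive rhomboid gene, held 3 sites within 48 bp at 7.14% in the fasted and 92.3 to 100% in the control library. Reads span such distances, so the sites of a block share molecules and are not separate observations.

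Most switches lay away from gene starts, as methylated cytosines in general do. Inside an annotated gene lay 211 of 367 members, or 57.5% (52.3 to 62.6), against 74.1% of all cytosines examined and 63.2% of those at 90% or more in at least 1 library. Inside protein-coding genes lay 48.2% of members, against 67.5% of all and 55.1% of highly methylated ones. The share was 54.5% (47.3 to 61.5) for members higher and 40.7% (33.2 to 48.6) for members lower in the fasted library. Both cytosines of a site are counted, and 10 of the lower members lay within 89 bp in the pseudogene Gm3786. Members are thus no independent observations, and the difference between the directions was not tested. Within 1000 bp of an annotated start lay 8 of 341 members with a value, or 2.35% (1.02 to 4.57), against 39.6% of all cytosines and 2.77% of the highly methylated ones. By sites, 160 of 325 lay in protein-coding genes, 16 in lncRNA genes, 14 in pseudogenes, 1 in a transcribed pseudogene, 1 in another RNA gene and 133 between genes. The sites fell in 125 protein-coding genes, 28 of which held more than 1.

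No gene of the 10 lists examined held a full switch, although metabolic genes outside the lists did, such as Hk1, described below. The 10 lists covered gluconeogenesis, fatty acid oxidation and ketogenesis, lipogenesis, insulin and glucagon signalling, cholesterol and bile acids, amino acid breakdown and the urea cycle, the circadian clock, DNA methylation and one-carbon metabolism, imprinted genes and hepatocyte transcription factors. Of 181 symbols, 175 had a measured cytosine in the gene or within 1000 bp, 16314 cytosines in all, and 0 genes held a member. At the 0.0229% seen over all cytosines few members would fall in that many cytosines, so the count says little about these genes.

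Switches were unevenly spread over chromosomes. Per 100000 examined cytosines there were 58.4 sites on chromosome 14, 44.4 on chromosome 18 and 35.3 on chromosome 5, but 5.51 on chromosome 15, 4.38 on chromosome 4 and 1.95 on chromosome 16. Chromosome 16 held 1 site and chromosome 5 held 41. The direction also differed by chromosome, with 7 sites higher and 34 lower on chromosome 5, 16 higher and 2 lower on chromosome 10, and 10 higher and 1 lower on chromosome 13. Sites lying close together are counted separately here. On chromosome 5, 9 lower sites lay within 89 bp in Gm3786 and 14 between positions 3025573 and 6615562. On chromosome 13, 7 of the 10 higher sites lay between positions 58360082 and 60083451.

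Sites close to each other shared a direction. Of 188 neighbouring pairs of sites up to 1 Mb apart, 158 had the same direction, or 84.0% (78.0 to 89.0), and of 118 pairs further apart 56, or 47.5% (38.2 to 56.9). Pairs up to 100 bp apart, which include the blocks, shared it in 24 of 26 cases. Between 100 kb and 1 Mb, far beyond a sequenced fragment, 86 of 110 pairs did, or 78.2% (69.3 to 85.5), and from 1 to 5 Mb 17 of 36. All pairs come from the same libraries, so they are no independent observations.

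Joining sites up to 1 Mb apart gave 16 runs of at least 5 sites. They held 139 of the 325 sites, 42.8%, on 1.70% of the examined cytosines, with 7 runs of 1 direction only. Runs were made by joining members, so a large share of sites on few cytosines follows from their definition. The longest run by sites was on chromosome 14, from position 13749627 to 19316889, where 21 of 21 sites were lower in the fasted library. Genes of the run were named after the values were seen. Inside Slc4a7, a bicarbonate transporter gene, the member stood at 0% of 26 reads in the fasted and 100% of 16 reads in the control library. Inside Oxsm, an enzyme gene of mitochondrial fatty acid synthesis, it stood at 0% of 22 reads in the fasted and 91.7% of 24 reads in the control library. Inside Rarb, a retinoic acid receptor gene, it stood at 0% of 22 reads in the fasted and 100% of 32 reads in the control library. Inside Thrb, a thyroid hormone receptor gene, it stood at 0% of 16 reads in the fasted and 100% of 13 reads in the control library. Strand partners at Slc4a7 and Thrb were unlisted in the control library, where the member was high, and at Rarb in both libraries. At Oxsm the partner stood at 0% of 9 reads in the fasted and 100% of 6 reads in the control library. The nearest other CpGs changed less than the members, for example with 86.4% in the fasted and 87.5% in the control library at Oxsm. The mean over all 1817 cytosines of the run was 34.0% in the fasted and 36.0% in the control library.

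A run on chromosome 2, from position 155620909 to 156166475, had 8 of 8 sites higher in the fasted library, among them sites in Nfs1, a cysteine desulfurase gene, and Uqcc1, an assembly factor gene of respiratory complex III. A run on chromosome 13 (58360082 to 60083451) had 7 of 7 higher and included the Ntrk2 site, and a run on chromosome 10 (61479799 to 62283886) had 6 of 6 higher and included a site in Hk1, a hexokinase gene, at 92.6% of 27 reads in the fasted and 0% of 30 reads in the control library. A run on chromosome 5 (3025573 to 6615562) had 2 sites higher and 14 lower and held Cdk14 and the Gm8773 promoter. A run on chromosome 17 (24792428 to 26437254) was split, with 5 higher and 5 lower.

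Cytosines listed in only one of the libraries went with the direction of these runs. Over all autosomal cytosines with at least 10 reads in either library, 0.648% were unlisted in the fasted and 0.775% in the control library. In the chromosome 14 run, low in the fasted library, 20.9% were unlisted in the fasted and 5.32% in the control library. In the chromosome 2 run at 155620909, low in the control library, 2.75% were unlisted in the fasted and 13.9% in the control library. In the chromosome 5 run at 3025573 it was 18.9% in the fasted and 3.88% in the control library, and in a run of 6 sites on chromosome 6 (140192634 to 140924016), all higher in the fasted library, 9.07% in the fasted and 22.1% in the control library. In 13 of the 15 runs with unequal directions the library that was low at most sites had the larger unlisted share. The exceptions were the run on chromosome 5 that holds Gm3786, with 2.61% unlisted in the fasted and 5.27% in the control library, and a run of 6 sites on chromosome 1 (35321560 to 37181132), with 4.23% in the fasted and 3.53% in the control library. Runs were formed from the members, so this is a description of chosen stretches, and what links the measures was not tested.

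**Figure D5:**
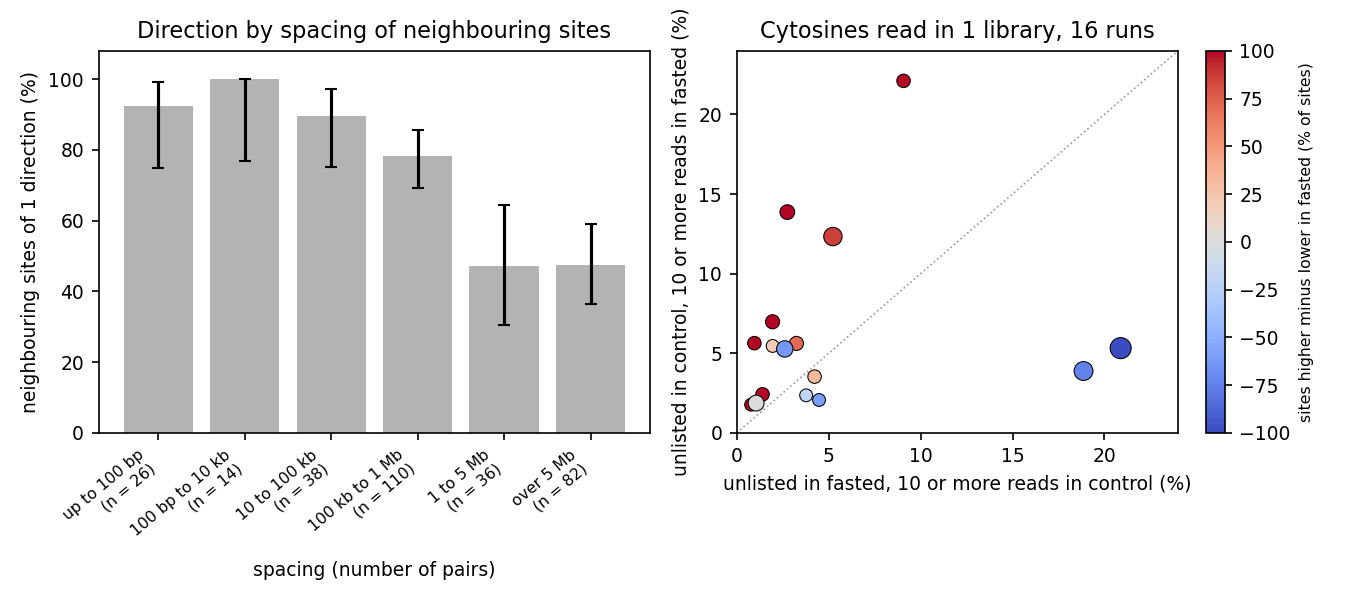
Left, percentage of neighbouring site pairs with the same direction (y axis) by their spacing (x axis), with 95% exact intervals and the number of pairs; pairs up to 1 Mb apart share a direction more often than not, and wider ones lie near 47%. Right, percentage of cytosines with at least 10 reads in one library and unlisted in the other, for the 16 runs of at least 5 sites. Those unlisted in fasted are on the x axis and those unlisted in control on the y axis. Runs are coloured by direction and sized by the number of sites. Runs with sites mostly lower in fasted, in blue, lie below the dotted line except the run with Gm3786. Those mostly higher, in red, lie above it except 1 run on chromosome 1.

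Intermediate steps outnumbered full ones, but the classes are unlike. The class of 40 to 60% is wider than those of a full step and needs a smaller change, so the counts are a description only. With the strands summed and at least 20 reads in both libraries, 739073 sites remained. Of these, 79 were at 90% or more in the fasted library and at most 10% in the control library, and 74 the reverse. At 412 sites the fasted library stood at 40 to 60% and the control library at 90% or more, and at 519 the fasted library stood at 90% or more and the control library at 40 to 60%. The fasted library stood at 40 to 60% beside at most 10% in the control library at 311 sites, and at most 10% beside 40 to 60% at 297. The nearest other site changed by less than 10 points at 73.2% (59.7 to 84.2) and 73.3% (58.1 to 85.4) of the full steps. The share was 52.5% and 51.6% at the steps between 40 to 60% and a high level. At the steps between 40 to 60% and a low level it was 54.4% and 43.5%. At sites high in both libraries it was 85.1%, and at sites low in both 98.7%.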

How the data were processed

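DNA methylation was measured in 1 fasted and 1 control liver library, grouped by their titles. The submitters' processing notes name Bismark 0.14.3, bcl2fastq 1.8.4 and mm10 as tools and build. For alignment settings, duplicates and filters nothing was stated in the labels. The deposited tables hold CpG cytosines with a text field of methylated reads, total reads and percent, and a deposited score of 1000 times the methylated fraction, which lay within 0.5 of the value from the reads. The read counts were used, with no normalization. The fasted library held 51276705 and the control library 49253627 reads over cytosines.

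Start positions were converted to count from 1. Partners, nearest CpGs (ties to the same strand, then the lower position), spacing and runs were computed with Python 3.11.15, pandas 2.3.3 and scipy 1.17.1, and the code was tested on simulated data. Intervals are exact Clopper-Pearson intervals at 95%. Without molecular identifiers, PCR copies cannot be told from separate molecules, so intervals cover counting error only, and read totals were even at 55.6% of members in the fasted and 68.7% (63.6 to 73.4) in the control library, against 57.6% of all cytosines in the fasted and 58.1% in the control library. What the members' larger share of even totals in the control library means for the number of separate molecules was not tested. No test was run. The members and lists were chosen with earlier results of these data known, and the classes within 100 bp, runs, spacing and intermediate steps after seeing these values.

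Genes come from RefSeq assembly GRCm38.p6, the build of mm10. Starts come from the RefSeq promoter table, which held none for chromosome 18. Named are, per direction, the 8 sites with both strands switching and the most reads in the least covered value, the 4 such single-strand members, genes with at least 3 sites and promoter sites, without chromosome 18. Alternatives were other coverage minimums, level limits, chromosomes, equal depth, a coverage cap, merged strands, and other partner and neighbour criteria. Leaving out Gm3786 or chromosome 14 was added after seeing the data.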

Additional observations from a re-analysis of the deposited data

Results flagged for a closer look

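Chromosome X was outside the rule, which covered autosomes. It had 16195 cytosines read 10 times or more in each library, of which 4 were full switches, 3 higher and 1 lower in the fasted library, or 0.0247%. These were set apart because they lie in data the comparisons above did not use. Chromosome Y, with 1003 such cytosines, and the other sequences, with 820, held 0.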

How the results depend on the processing

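Counts followed the limits of the rule. With a minimum of 5 reads there were 432 full switches higher and 359 lower in the fasted library at 672 sites, and with 20 reads 42 and 36 at 73 sites. With limits of 5% and 95% there were 103 higher and 85 lower at 172 sites, and with 20% and 80% there were 414 and 357 at 691 sites. The share of partners that switched, per member cytosine, was 57.9% (84 of 145) under the rule itself, 66.7% (10 of 15) at 20 reads, 43.2% with limits of 5% and 95%, and 93.1% when a move of 50 points sufficed. The share of nearest other CpGs that changed by less than 10 points was 53.1% at 5 reads, 65.8% with limits of 5% and 95% and 47.9% with 20% and 80%, and 75.9% changed by less than 20 points. Inside genes lay 51.6% with limits of 5% and 95%, and 48.2% when only protein-coding genes counted. The other 30 values, among them those for all chromosomes, equal depth, a coverage cap, merged strands, other distances, and without Gm3786 or chromosome 14, stayed within the interval of a share or within 1.5 times a count. The causes of these moves were not tested. Higher switches outnumbered lower ones in each setting. No replicate could be left out and no paired analysis was possible because each group had 1 library. At this depth a full switch rests on as few as 10 reads a library, and a level of 90% on 10 reads allows a wide range.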
